A study of Mus musculus with 10 samples.

Results

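Integrins are the main receptors by which cells hold on to the extracellular matrix. The 10 genes named for this account encode chains whose pairs bind matrix: Itga1, Itga3, Itga5, Itga6, Itgav, Itgb1, Itgb3, Itgb4, Itgb5 and Itgb8. Members were the probe sets annotated with exactly 1 of these symbols, which gave 22 of the 22626 probe sets that are not controls. They covered 8 of the 10 genes, among 12393 genes in all. No probe set carried Itga1, the alpha chain of a collagen and laminin receptor, or Itgb8, the beta chain of a receptor that binds latent TGF-beta, as its only symbol, and these genes were not analysed here.

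Expression was measured on microarrays in the optic nerve head, the point at which axons of retinal ganglion cells exit the globe, of male C57Bl/6 mice aged 6 to 8 weeks. In the high IOP group, the intraocular pressure (IOP) of the right eye was raised to 30 mmHg for 1 h by cannulating the anterior chamber with saline, with 3 days of recovery before collection. The control group was the left eye of the animals, which had no operation, so side, cannulation and pressure cannot be told apart. Each array held RNA of 2 pooled nerve heads, with 5 arrays per group from 10 mice.

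Each integrin is a pair of 1 alpha and 1 beta chain that spans the membrane. Outside the cell the pair binds laminin, collagen, fibronectin or vitronectin, and inside it binds adaptors such as talin that link it to actin. In the optic nerve head, integrins are carried by astrocytes, vessel cells and cells of the connective tissue, and they are studied as possible sensors of the strain that pressure puts on this tissue.

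The tissue label was checked against astrocyte and myelin markers. All 10 astrocyte markers were measured, with a lowest signal of 124 on any array, and 7 of 10 myelin markers, with a lowest signal of 652. Photoreceptor and pigment cell markers were also present and differed between arrays. The summed signal of 11 photoreceptor markers ran from 2399 to 10858 in high IOP and from 1738 to 11062 in control tissue. For 10 markers of pigment cells and retinal pigment epithelium it ran from 26935 to 42835 in high IOP and from 22455 to 53953 in control tissue. The median signal of an array lay between 414 and 475. High IOP replicate 1 stood apart. Its mean correlation with the other arrays was 0.974, against 0.986 to 0.989 for the other 9, and its Gapdh control signal was 2.07 times as high at the 3' end as at the 5' end, against 1.53 to 1.73 times on the others. It held the highest or lowest value of 10 for 46.9% of all genes, and for 6 of the 8 integrin genes. In bulk tissue, fewer cells of a type and less RNA per cell cannot be told apart.

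No integrin chain differed between the groups at a limma adjusted p under 0.05. The count was 0 of 8, where 0% of all 12393 genes were called. At an unadjusted p under 0.05 it was again 0 of 8, against 3.99% of all genes (2.65% higher and 1.34% lower in high IOP). The smallest unadjusted limma p were 0.0643 for Itga3, 0.106 for Itgb5 and 0.132 for Itgb1. High IOP and control arrays overlapped for all 8 chains, while 0.629% of all genes had groups that did not overlap (0.403% with high IOP higher and 0.226% lower). Each gene is given by its probe set with the highest mean signal. Of the 8 log2 fold changes, high IOP minus control on the scale log2(signal + 16), 5 lay above 0, where 47.3% of all genes did. Their median was 0.08, beside -0.01 over all genes. The 95% confidence interval of all 8 lay within 2-fold in both directions (95.5% of all genes), and that of 4 of 8 within 1.5-fold (76.8% of all genes).

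**Figure D1:**
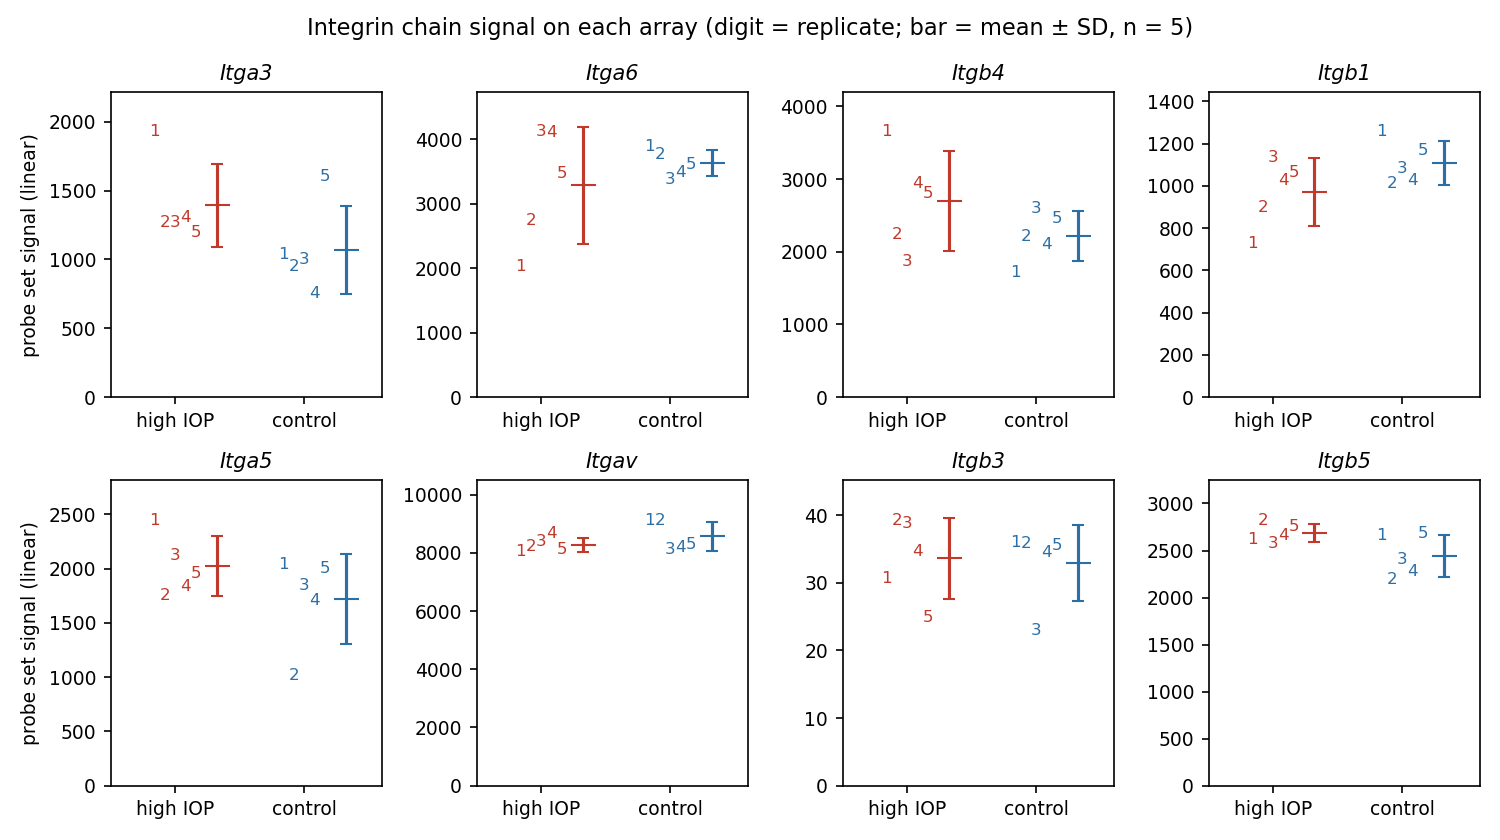
Signal of the probe set used for each of the 8 integrin genes on a linear scale that starts at 0, with high IOP arrays in red left of control arrays in blue. Digits are replicate numbers and bars show the mean ± SD (n = 5). The groups overlap in every panel, and the digit 1 of the high IOP group is the highest for Itga3, Itgb4 and Itga5 and the lowest for Itga6, Itgb1 and Itgav.

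Laminin receptors come first. Itga3 encodes the alpha chain of alpha3beta1, which binds the laminins of basement membranes. Its signal was 1927, 1268, 1271, 1302 and 1194 in high IOP replicates 1 to 5, against 1036, 952, 1003, 751 and 1600 in control replicates 1 to 5. All high IOP arrays lay above 4 of the 5 control arrays, and control replicate 5 lay above all of them except replicate 1. The mean was 1392 ± 302 in high IOP and 1068 ± 317 in control tissue (SD, n = 5 each). The log2 fold change was 0.40, and its 95% confidence interval ran from -0.03 to 0.83 (limma adjusted p = 0.849). It was the gene with the smallest p of the 8. A dimmer Itga3 probe set stood at 0.31 and the dimmest at 0.03. Without control replicate 5 the value was 0.55 and without high IOP replicate 1 it was 0.28.

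Itga6 encodes the alpha chain shared by alpha6beta1 and alpha6beta4, both laminin receptors. The brighter of its probe sets had signals of 2022, 2741, 4116, 4109 and 3465 in high IOP replicates 1 to 5, against 3893, 3771, 3380, 3492 and 3613 in control replicates 1 to 5. High IOP arrays lay on both sides of the narrow control range, 2 above it and 2 below it. The mean was 3291 ± 907 in high IOP and 3630 ± 207 in control tissue (SD, n = 5 each). For this probe set the log2 fold change was -0.19 with an interval from -0.59 to 0.21 (limma adjusted p = 0.849), and -0.03 without high IOP replicate 1.

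The other Itga6 probe set, annotated to the same sequence record, gave the opposite sign. It had signals of 3392, 1894, 3268, 2903 and 2847 in high IOP replicates 1 to 5, against 2226, 2625, 2436, 2501 and 2596 in control replicates 1 to 5, a log2 fold change of 0.18 (interval -0.14 to 0.50). High IOP replicate 1 was thus the lowest of 10 arrays by one probe set and the highest by the other. Over all 10 arrays these probe sets had a Pearson r of -0.07 (permutation p = 0.833) and a Spearman rho of 0.20 (permutation p = 0.584), and without the 2 arrays farthest from the median r was 0.46. Without high IOP replicate 1, r was 0.77 (exact permutation p = 0.0199, adjusted p = 0.0496 over 14 probe set pairs). That array also had the most uneven Gapdh signal along the transcript, whose part in this was not tested. The mean of both probe sets gave a log2 fold change of -0.0036 for Itga6.

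Itgb4 encodes the beta chain that pairs with alpha6 only and anchors epithelial cells through hemidesmosomes, and that endothelial and Schwann cells also carry. Its signal was 3651, 2237, 1860, 2941 and 2809 in high IOP replicates 1 to 5, against 1718, 2204, 2598, 2097 and 2464 in control replicates 1 to 5. High IOP replicates 1, 4 and 5 lay above every control array and the other two within the control range. The log2 fold change was 0.26 with an interval from -0.14 to 0.65 (limma adjusted p = 0.849), and 0.14 without high IOP replicate 1. Surface epithelium could also carry this chain. The summed signal of the 12 epithelial markers, all of them measured, ranged from 4698 to 9758 in high IOP and from 4917 to 7982 in control tissue, with the largest share from the cadherin Cdh1, at 3498 ± 1094 in high IOP and 3340 ± 592 in control tissue (SD, n = 5 each). The desmosomal Dsp averaged 761 ± 320 in high IOP and 548 ± 130 in control tissue (SD, n = 5 each). The keratin Krt5 averaged 7.91 ± 9.77 in high IOP and 5.84 ± 6.25 in control tissue (SD, n = 5 each), near the low end of the signal range. Of the 12 markers, 9 had a log2 fold change above 0 and 3 below (median 0.08). Krt12 stood at 0.49, or 0.34 without high IOP replicate 4, with another probe set at -0.01. The Krt12 signal was dim, at 25.8 ± 15.9 in high IOP and 12.5 ± 7.20 in control tissue (SD, n = 5 each). Krt15 and Krt14 stood at -0.17 each, with other Krt14 probe sets above 0. The lowest single signal of the list, 0.69, was also the lowest of all probe sets that are not controls. On high IOP replicate 1, the highest for Itgb4, this sum was 6305. The part of epithelial content was not tested.

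Itgb1 encodes the beta chain that most matrix-binding alpha chains share. Its signal was 726, 897, 1135, 1028 and 1064 in high IOP replicates 1 to 5, against 1256, 1013, 1085, 1025 and 1166 in control replicates 1 to 5. High IOP replicates 1 and 2 lay below every control array. The mean was 970 ± 161 in high IOP and 1109 ± 102 in control tissue (SD, n = 5 each). This was a log2 fold change of -0.20 with an interval from -0.48 to 0.07 (limma adjusted p = 0.849). Without high IOP replicate 1 the value was -0.10. Of the 6 Itgb1 probe sets 4 lay below 0 and 2 above, from -0.38 to 0.08, and the 4 dimmest had group means from 7.43 to 60.7. The next brightest followed the one used closely (r = 0.92, permutation p = 0.00096, rho = 0.81, permutation p = 0.0069, r = 0.64 without the 2 arrays farthest from the median).

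The fibronectin and vitronectin receptors follow. Itga5 encodes the alpha chain of alpha5beta1, the main fibronectin receptor. Its signal was 2446, 1754, 2123, 1834 and 1958 in high IOP replicates 1 to 5, against 2039, 1011, 1846, 1709 and 1999 in control replicates 1 to 5. Control replicate 2 lay far below the other 9 arrays. The log2 fold change was 0.26 with an interval from -0.14 to 0.67 (limma adjusted p = 0.849), and 0.08 without control replicate 2. The dimmer Itga5 probe set stood at 0.04, and the mean of both at 0.15. Control replicate 2 also had the lowest summed signal of the 10 for 12 endothelial markers (17447, against 20281 to 26870 in high IOP and 19421 to 24981 in the other control arrays) and for 11 mural cell markers (22619, against 25962 to 31030 in high IOP and 27980 to 34843 in the other control arrays). The part of vessel content in the Itga5 value was not tested.

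Itgav encodes the alpha chain of the vitronectin receptors and of the integrins that free TGF-beta from its latent form. Its signal was 8048, 8224, 8400, 8653 and 8112 in high IOP replicates 1 to 5, against 9109, 9123, 8113, 8202 and 8285 in control replicates 1 to 5. The 10 arrays spanned 1.13-fold, and the standard deviation within groups, 0.07 on the log2 scale, was at percentile 2.49 of all genes. The log2 fold change was -0.05 with an interval from -0.20 to 0.11 (limma adjusted p = 0.889). Both dimmer Itgav probe sets also lay below 0, at -0.17 and -0.53, and the interval of the lowest ran from -1.56 to 0.50. The highest signal of any array was 17706, and whether differences are compressed near the top of the range was not tested.

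Itgb5 encodes the beta chain of alphavbeta5, a vitronectin receptor. Its signal was 2617, 2821, 2579, 2656 and 2759 in high IOP replicates 1 to 5, against 2658, 2191, 2403, 2275 and 2678 in control replicates 1 to 5. High IOP arrays kept to a narrow range, with 3 of the 5 control arrays below it and the other two within it. The mean was 2686 ± 101 in high IOP and 2441 ± 221 in control tissue (SD, n = 5 each). The log2 fold change of 0.14 had an interval from -0.04 to 0.32 (limma adjusted p = 0.849). All 4 Itgb5 probe sets lay above 0, from 0.11 to 0.17, and 2 of the other 3 followed the one used with a Pearson r of 0.87 and 0.91 (permutation p = 0.00058 and 0.00083, rho = 0.78 and 0.81, r = 0.68 each without the 2 arrays farthest from the median). The probe set used is of the kind whose probes may also match other transcripts. Over all alternatives the Itgb5 value ran from 0.10 to 0.18.

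Itgb3 encodes the beta chain of alphavbeta3 and of the platelet fibrinogen receptor. Its only probe set was dim, with signals of 30.6, 39.2, 38.7, 34.7 and 24.9 in high IOP replicates 1 to 5, against 35.9, 35.8, 23.0, 34.5 and 35.5 in control replicates 1 to 5. The ranges were nearly the same. The log2 fold change was 0.02 (interval -0.23 to 0.27, limma adjusted p = 0.977), and it turned below 0 without high IOP replicate 2 (-0.02), high IOP replicate 3 (-0.02) or control replicate 3 (-0.06). With the 16 added before the log, differences of so dim a signal are understated.

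**Figure D2:**
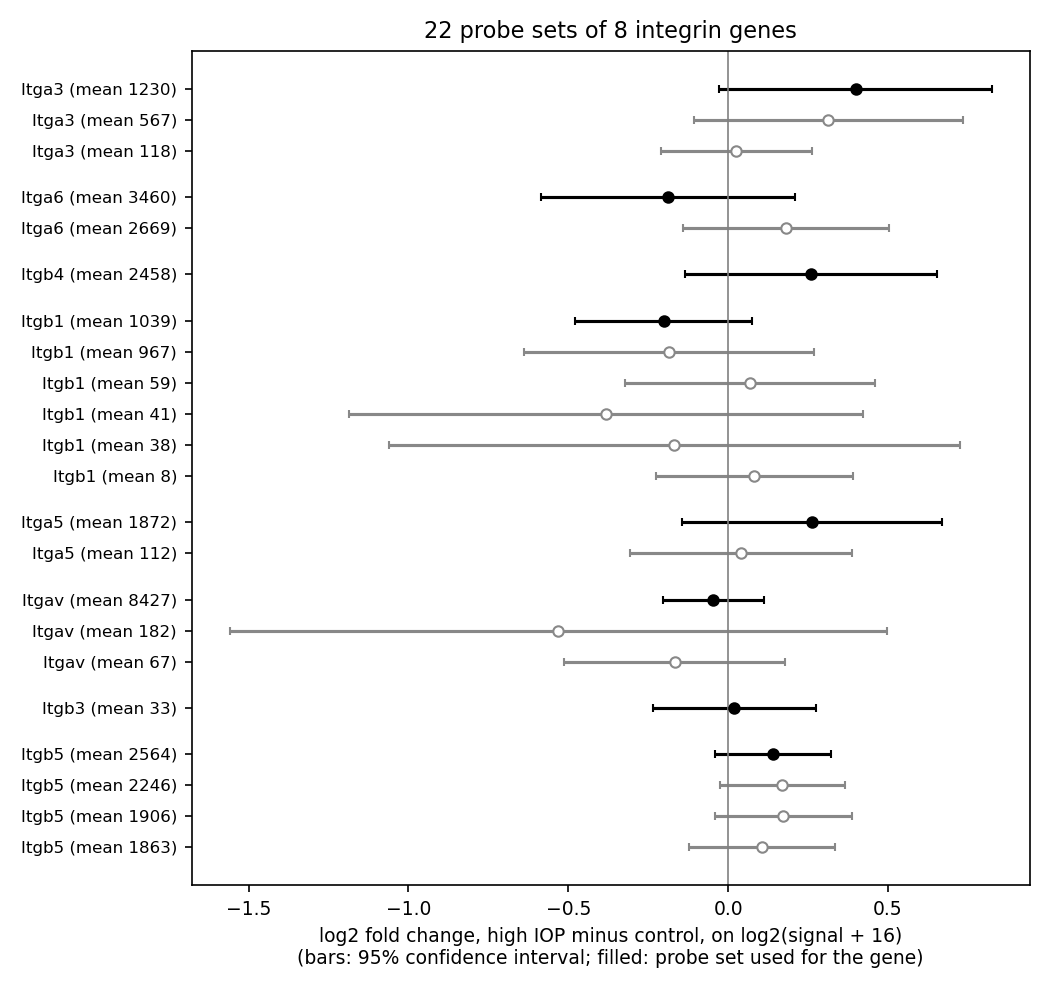
Log2 fold change, high IOP minus control on log2(signal + 16), of the 22 probe sets of 8 integrin genes, with 95% confidence intervals from limma over all probe sets (n = 5 per group). Filled points are the probe set used for the gene, and the mean signal stands beside each name. The interval of every probe set includes 0, 14 of 22 lie above 0, and Itga6 and Itgb1 have probe sets on both sides.

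Over the 22 probe sets, 14 lay above 0 and 8 below, and 0 had an unadjusted limma p under 0.05 (smallest 0.0638). Probe sets of Itga3, Itga5, Itgav and Itgb5 kept to 1 side of 0 each.

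How the chains varied together was compared over the 28 pairs of measured genes. No pair passed after adjustment. Itga6 and Itgb1, the chains of alpha6beta1, had the highest correlation over 10 arrays, with a Pearson r of 0.88 (permutation p = 0.00398, adjusted p = 0.111) and a Spearman rho of 0.58 (permutation p = 0.0893). The relation rested on high IOP replicates 1 and 2, which were lowest for both chains, since r was 0.19 without them. It also hung on the Itga6 probe set used. By the other one, on which high IOP replicate 1 was the highest array, r with Itgb1 was -0.25 (permutation p = 0.492, rho = -0.20, permutation p = 0.585). Without that array r was 0.32 by the other probe set and 0.64 by the one used. Itgb4 ran opposite to Itgb1, with r = -0.69 (permutation p = 0.0267, adjusted p = 0.293) and rho = -0.44 (permutation p = 0.205), and r was 0.00482 without control replicate 1 and high IOP replicate 1.

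Itgb5 varied with Itga5 (r = 0.67, permutation p = 0.0313, rho = 0.28, permutation p = 0.428) and with Itga3 (r = 0.64, permutation p = 0.0476, rho = 0.50, permutation p = 0.142). Their adjusted p were 0.293 and 0.309. Without the 2 arrays farthest from the median r was 0.34 for Itga5 and 0.65 for Itga3. After the group means were subtracted these were 0.57 and 0.45. Equal replicate numbers may be the same mice, so the 10 arrays may not be independent.

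**Figure D3:**
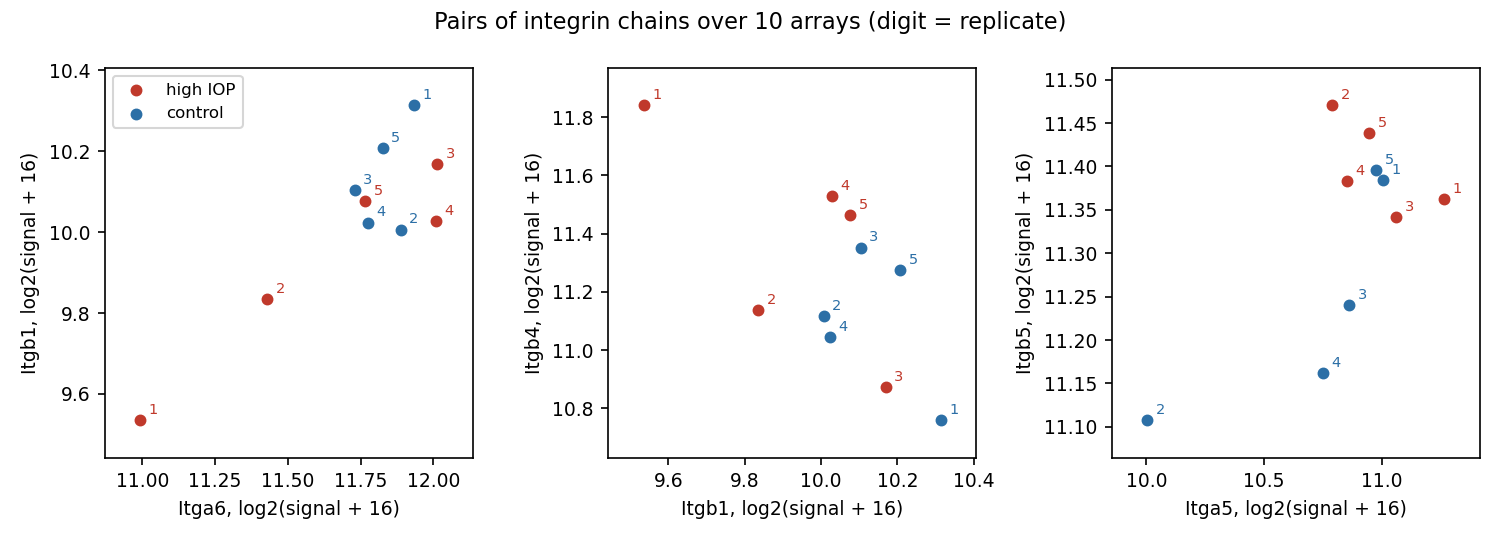
Log2(signal + 16) of Itgb1 against Itga6, of Itgb4 against Itgb1 and of Itgb5 against Itga5, with 1 point per array, high IOP in red, control in blue and the replicate number beside each point. In the left plot high IOP replicates 1 and 2 lie apart at the lower left (r = 0.88 over 10 arrays, 0.19 without them), and in the right plot control replicate 2 lies apart at the lower left.

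**Figure D4:**
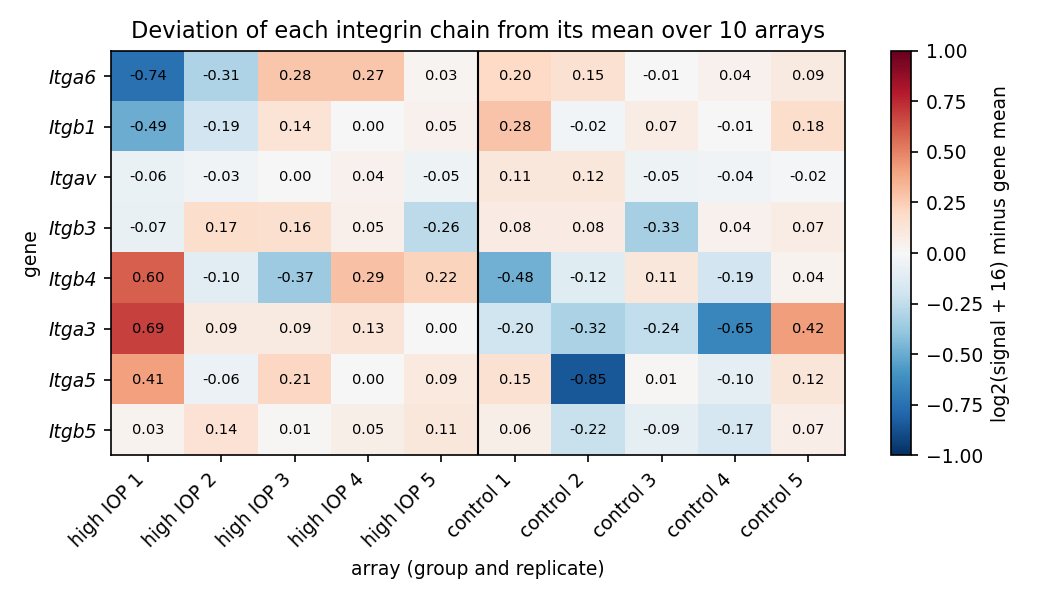
Deviation of each integrin gene from its own mean over 10 arrays on the log2(signal + 16) scale, with high IOP arrays left of the line and control arrays right of it. High IOP replicate 1 is at -0.74 for Itga6 and -0.49 for Itgb1, and at 0.60, 0.69 and 0.41 for Itgb4, Itga3 and Itga5, while control replicate 2 is at -0.85 for Itga5.

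Because alpha6 can pair with either beta chain, the Itgb4 signal was also set against Itgb1 within each array. Relative to the control mean, the log2 ratio was 1.33, 0.32, -0.27, 0.52 and 0.41 in high IOP replicates 1 to 5, against -0.53, 0.13, 0.27, 0.04 and 0.09 in control replicates 1 to 5. High IOP replicates 1, 2, 4 and 5 lay above every control array and replicate 3 within their range. The difference between group means was 0.46, and 0.25 without high IOP replicate 1. Set against Itgb1 in the same way, Itga3 differed by 0.60 and Itga5 by 0.47, or 0.38 and 0.30 without high IOP replicate 1. For Itga5 the ratio ran from 0.24 to 1.14 in high IOP and from -0.59 to 0.18 in control arrays, without overlap, and how many other gene pairs separate in this way was not computed. Of the other ratios, Itgb4 over Itga6 differed by 0.45, or 0.17 without high IOP replicate 1. Itgb5 over Itgav differed by 0.19, Itgb3 over Itgav by 0.07 and Itga6 over Itgb1 by 0.01. Ratios with Itga6 used only its brighter probe set, with a log2 fold change of -0.19, while the other stood at 0.18. These 7 ratios share chains and were picked after values were seen, and no test is given. The 7 measured myelin markers had their lowest summed signal on the same array, 38490 in high IOP replicate 1, against 48713 to 55765 in the other high IOP arrays and 46924 to 60842 in control arrays, and the part of tissue content was not tested.

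The starts of 4 genes are shown to give the sequence context of Itga3, Itga5 and Itgb5, whose log2 fold changes all lay above 0, and of Itgb1, whose value lay below 0. Each run covers 250 bases before to 50 after an annotated start, from RefSeq on GRCm38.p6, and capitals mark the GC box GGGCGG on either strand, where the opposite strand reads CCGCCC. The windows are chr11:95076665-95076964 (minus strand) for Itga3, where the other annotated start is not shown, chr15:103366742-103367041 (minus strand) for Itga5, chr16:33829415-33829714 (plus strand) for Itgb5 and chr8:128685404-128685703 (plus strand) for Itgb1.
Itga3: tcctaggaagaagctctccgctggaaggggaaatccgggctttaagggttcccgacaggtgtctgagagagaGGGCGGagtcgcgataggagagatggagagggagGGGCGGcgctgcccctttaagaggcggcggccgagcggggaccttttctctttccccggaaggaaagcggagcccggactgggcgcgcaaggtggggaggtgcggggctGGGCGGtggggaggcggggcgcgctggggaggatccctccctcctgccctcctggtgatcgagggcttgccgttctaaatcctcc
Itga5: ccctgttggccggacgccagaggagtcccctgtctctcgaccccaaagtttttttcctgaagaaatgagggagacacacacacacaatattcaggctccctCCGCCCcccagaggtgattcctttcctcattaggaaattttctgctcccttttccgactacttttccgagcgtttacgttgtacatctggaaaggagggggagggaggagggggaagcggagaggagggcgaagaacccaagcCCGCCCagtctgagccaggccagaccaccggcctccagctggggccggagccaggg
Itgb5: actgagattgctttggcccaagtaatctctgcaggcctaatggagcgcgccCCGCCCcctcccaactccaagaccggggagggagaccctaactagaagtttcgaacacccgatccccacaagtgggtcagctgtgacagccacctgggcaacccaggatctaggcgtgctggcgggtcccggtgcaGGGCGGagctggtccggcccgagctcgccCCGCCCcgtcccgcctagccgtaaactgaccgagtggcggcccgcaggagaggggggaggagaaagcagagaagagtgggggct
Itgb1: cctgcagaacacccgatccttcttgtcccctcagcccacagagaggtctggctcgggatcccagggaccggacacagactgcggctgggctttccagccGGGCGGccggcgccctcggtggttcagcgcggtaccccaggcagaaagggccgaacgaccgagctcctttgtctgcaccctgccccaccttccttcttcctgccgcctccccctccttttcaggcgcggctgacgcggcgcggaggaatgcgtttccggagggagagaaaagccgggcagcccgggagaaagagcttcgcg

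The GC box occurred 3 times in the Itga3 window, 2 times in that of Itga5, 3 times in that of Itgb5 and 1 time in that of Itgb1. Of 32851 promoter windows of the same length, 35.7% held at least 1. The share of G and C was 66.7%, 58.7%, 65.7% and 67.3% in the order printed, beside a median of 52.7% over all windows. 3 further motifs, searched on both strands, were in none of the 4 windows. They were the AP-1 site TGANTCA, found in 7.81% of all windows, the TATA box TATAAA, found in 13.6%, and the CCAAT box, found in 37.4%. The Itga3 window that is not shown held 1 GC box, 1 AP-1 site and 1 CCAAT box. The genes printed were picked after their values were seen. The windows of Itga1, Itgav and Itgb8, which were also matched, held 0, 1 and 0 GC boxes, and that of Itgb8 held 1 CCAAT box. Itga6, Itgb3 and Itgb4 were not matched.

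Of the other integrin chains, 0 were called. Of 7 measured chains of further matrix or adhesion receptors 2 lay above 0 and 5 below (median -0.08). The median was -0.0076 without high IOP replicate 1 and -0.22 without control replicate 2, with 3 above 0 in both cases. The list held 0 genes at an unadjusted p under 0.05. Itga8, the alpha chain that binds nephronectin, had 31.9 ± 7.56 in high IOP and 23.3 ± 5.09 in control tissue (SD, n = 5 each), a log2 fold change of 0.28. Itga2b, the platelet alpha chain, stood at 0.22 (0.13 without high IOP replicate 3) and Itga2 at -0.20 (-0.13 without high IOP replicate 5). Itga4 stood at -0.17, at -0.010 without high IOP replicate 1, and its other probe sets lay above 0. Of 6 leukocyte chains 5 lay above 0 and 1 below. Itgax, of dendritic cells and activated microglia, had 221 ± 32.8 in high IOP and 184 ± 19.3 in control tissue (SD, n = 5 each), and Itgam, of myeloid cells, 13.3 ± 3.27 in high IOP and 22.9 ± 5.17 in control tissue (SD, n = 5 each). These had unadjusted limma p of 0.0468 and 0.00465 and an adjusted p of 0.849 each. Itgam was dim, at 8.94 to 30.4 over the arrays, as were Itga8 and Itga2. Whether these dim chains lay above background was not known. Itgax stood at 0.24 on the log2 scale, and at 0.16 without high IOP replicate 2. Itgb7 stood at 0.43, and Itgb2 at 0.16, or 0.070 without control replicate 2.

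Ligands of these receptors were counted by the kind of matrix they build. Of 13 measured laminin chains, nidogens and perlecan 11 lay above 0 (median 0.20), with 1 at an unadjusted p under 0.05, Lama2, the alpha chain of muscle and vessel laminin, at 2637 ± 236 in high IOP and 2188 ± 189 in control tissue (SD, n = 5 each). Hspg2, which encodes perlecan, and the laminin chains Lamc3 and Lamb1 stood at 0.21, 0.41 and 0.25, with another Lamc3 probe set at -0.07. Lamb1 stood at 0.17 without high IOP replicate 1 and Lamc3 at 0.26 without control replicate 4. Endothelial markers lay mostly above 0 as well. Of 12 such markers, all measured, 8 lay above 0 and 4 below (median 0.15). Above 0 were 11 without high IOP replicate 1 (median 0.18) and 7 without control replicate 2 (median 0.092). The 3 with the smallest p, Vwf (0.36), Robo4 (0.49) and Eng (0.42), had an unadjusted limma p under 0.05. The summed signal of the 12 markers ranged from 20281 to 26870 in high IOP and from 17447 to 24981 in control tissue. It was highest on high IOP replicate 3, where the summed signal of the laminin list, 23275, was the lowest of the high IOP arrays. The part of the endothelial markers in the ligand values was not tested. Of 12 collagen chains 9 lay above 0 (median 0.11), and 7 without control replicate 2 (median 0.04), among them Col4a1, of basement membranes, at 0.18, or 0.10 without control replicate 2, and Col5a1 at 0.21, with another probe set at -0.24. Of 16 ligands of alpha5beta1 and the alphav integrins 9 lay above 0 (median 0.08), and 11 without high IOP replicate 1. Vwf, the platelet-binding protein of endothelium, stood at 0.36, or 0.27 without control replicate 2. Tgfbi, a matrix protein induced by TGF-beta, stood at 0.26, or 0.19 without high IOP replicate 1. Npnt, nephronectin, stood at 0.21, or 0.12 without control replicate 3. Edil3, a secreted ligand of alphav integrins, stood at -0.91, and at -0.28 without high IOP replicate 1.

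Genes of the latent TGF-beta axis, on which alphav integrins act, were split evenly, 7 above and 7 below 0 (median -0.0042, and 0.0154 without high IOP replicate 1). Tgfb1 itself had 820 ± 116 in high IOP and 618 ± 198 in control tissue (SD, n = 5 each). Its log2 fold change was 0.45 (limma adjusted p = 0.849), and 0.30 without control replicate 2. Tgfb1 and Nrros, which tethers latent TGF-beta on microglia, were the 2 genes of this list at an unadjusted p under 0.05. Nrros stood at 0.37, or 0.27 without high IOP replicate 1. The latent binder Ltbp3 stood at 0.18, or 0.14 without control replicate 2. Smad7, the feedback inhibitor of the pathway, stood at -0.75, and at -0.26 without high IOP replicate 1.

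Inside the cell, proteins that activate integrins centred near 0. Of 11 such genes 5 lay above 0 (median -0.01, and -0.04 without control replicate 2), with talin 1, Tln1, at 0.13, and kindlin 2, Fermt2, at -0.10 (log2 fold change). Of 22 focal adhesion adaptors 12 lay above 0 with a median of 0.04 and a mean of -0.02, and 10 with a median of -0.02 without high IOP replicate 1. The tensin Tns2 (0.32) was the only one at an unadjusted p under 0.05. Zyx, zyxin, stood at 0.32 and Lims1, of the complex with integrin-linked kinase, at -0.33. Without high IOP replicate 1, Tns2 and Zyx stood at 0.22 each and Lims1 at -0.14. Of 8 measured kinases 3 lay above 0, and 5 without high IOP replicate 1, with Fyn at -0.45 (-0.17 without high IOP replicate 1, and another probe set at 0.08) and Yes1 at -0.38 (-0.06 without it). The partners of alpha6beta4 in hemidesmosomes stood close to 0, with Dst at -0.04 and other probe sets of it on both sides, Plec at -0.04, the tetraspanin Cd151 at 0.02 and Col17a1 at 0.01. The signs of Plec, Cd151 and Col17a1 turned with 1 array left out. Other tetraspanins and integrin associates lay above 0 in 4 of 9 cases, with Cd9 at -0.63 and at -0.13 without high IOP replicate 1. Matrix receptors that are not integrins were split 8 to 8, with the proteoglycan Sdc4 at -0.25 and another probe set at 0.20, and the laminin receptor Bcam at 0.27. Without high IOP replicate 1, Sdc4 stood at -0.16 and Bcam at 0.15. In all these lists 0 genes were called by limma.

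**Figure D5:**
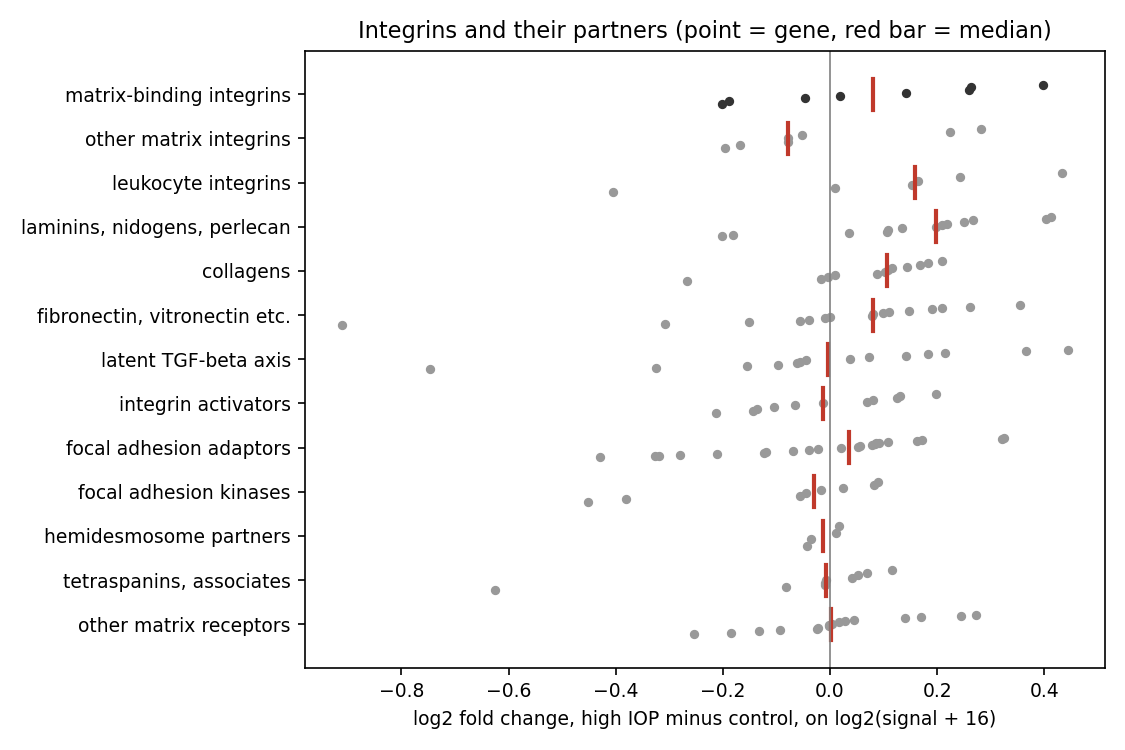
Log2 fold change, high IOP minus control on log2(signal + 16), of each measured gene (points) in the integrin genes and 12 lists of other integrins and partners, with a red bar at the median of the list (n = 5 arrays per group). The bar of the matrix-binding integrins stands at 0.08, that of laminins, nidogens and perlecan at 0.20, and that of the other matrix integrins at -0.08.

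The genes whose pattern over the 10 arrays was most like each chain, by Pearson r among the other 12392 genes, are given as a description, picked for the height of r. For Itga6 they were Rnd3, a small GTPase of the cytoskeleton, and Hnrnpl, an RNA-binding protein, with r of 0.99 and 0.98 (rho 0.96 and 0.94). For Itgb1 they were Ptpn2, a tyrosine phosphatase, and Slc10a1, with r of 0.98 and 0.97. For Itgb4 they were Chrd and Gria1, at 0.97 each, and for Itgav Lamtor3 and Ctf1, at 0.98 and 0.97. For Itga3 they were B4galnt1 and Tspo, at 0.94 and 0.93. Itga5 was most like Arap3 and Trib3 (0.91 each, rho 0.68 and 0.59), Itgb3 like Adam1b and Smarca2 (0.92 and 0.91), and Itgb5 like Nucb1 and Jpt1 (0.89 each). Without high IOP replicate 1 these r ranged from 0.89 to 0.98. All of these values rest on the same 10 arrays, whose normalization was not given.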

How the data were processed

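The values deposited by the authors were intensity values, linear and not log scaled, of 22690 probe sets on 10 arrays. Per the labels' protocols, 30 ng of total RNA was amplified with the Ovation system and labelled with biotin. How probes were summarised, corrected for background and normalized was not given in the sources used here, nor were detection calls. Precision is limited by the number of arrays. The labels call the pools biological replicates but do not say which mice each holds.

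After 64 control probe sets were set aside, the platform annotation gave 1 symbol for 20380 of 22626 probe sets, several for 691 and none for 1555. Each gene took its probe set with the highest mean over 10 arrays. Values were tested as log2(signal + 16) with limma 3.58.1 in R 4.3.3 (lmFit, eBayes, no covariates), high IOP minus control, with Benjamini-Hochberg adjustment over 12393 genes and calls at 0.05. Correlations used two-sided permutation p, 100000 resamples for 10 arrays and all orders for fewer, adjusted over 28 gene pairs or 14 probe set pairs, because 8 of the 10 genes were measured. Plots used Python 3.11.15 and Matplotlib 3.10.9. The members, lists and tests were chosen with earlier results of these data known. Named were all members, up to 4 genes per list with the smallest p, and the 2 genes most like each member. Markers shown beside a result were picked from their lists after the values were seen.

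On 10 simulated sets of 12393 genes and 5 and 5 arrays, limma called 39.8% of the genes simulated with a log2 change of 0.5 and 83.4% of those with 1. In each set 200 genes were changed, and on average 7.9 unchanged genes were called. Noise was drawn independently for each gene, and no simulated array stood apart as high IOP replicate 1 did. These shares therefore do not give the power of the comparison on the real arrays. Whether equal replicate numbers pair the arrays is not known. Deviations of same-numbered arrays correlated between -0.08 and 0.21. High IOP replicates 2 and 4 correlated best with the control of the same number (0.21 and 0.18), and replicates 1, 3 and 5 with another. These 5 values cannot settle whether the arrays are paired. The labels state no pairing by number, and the replicate number was kept out of the main model. Alternatives were quantile normalization, equal array medians, other pseudocounts, other handling of probe sets, filters on dim genes, other variance models, the replicate number as a block and each array left out.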

Additional observations from a re-analysis of the deposited data

Results flagged for a closer look

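In 5 of 44 groups of arrays, 22 probe sets in 2 groups of 5, 1 array lay far from the nearest other, by Dixon's test, at its 95% critical value, of the gap over the range of the group on log2(signal + 16). Linear signals also gave 5, of which 4 were the same, without the Itga5 value and with an Itgb1 probe set at 114 in high IOP replicate 3. Chance gives about 1 such group in 20. How many groups of all probe sets lay past the critical value was not computed. Probe sets of 1 gene were measured on the same arrays, so the 44 groups are not independent. Whether integrin genes held more such groups than other genes was therefore not tested. Itga3 was at 1927 in high IOP replicate 1, and the nearest high IOP array was at 1302. Itga5 was at 1011 in control replicate 2, where the nearest control array was at 1709. Itgb3 was at 23.0 in control replicate 3, where the nearest was at 34.5. A dim probe set of Itgav was at 82.7 in control replicate 4, where the nearest was at 219, and a second Itgb1 probe set was at 1217 in control replicate 1, where the nearest was at 983.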

How the results depend on the processing

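Under all 22 alternatives, 10 of them with 1 array left out, 0 genes and 0 integrin chains were called by limma at an adjusted p under 0.05. The median log2 fold change of the 8 integrin genes was 0.08, and 0.04 to 0.11 with arrays left out in turn. The replicate blocks, dim gene filters, trended variance and separate test of all probe sets cannot change a log2 fold change. A swap to the other Itga6 probe set, at 0.18 against -0.19, was not among the alternatives. Of 174 values of single chains, with those that could not change included, 171 kept their direction. The 3 that turned were those of Itgb3, at -0.02 without high IOP replicate 2, -0.02 without high IOP replicate 3 and -0.06 without control replicate 3 (range -0.060 to 0.088 with arrays left out in turn). The fixed replicate block left the log2 fold changes as they were (Itga3 at 0.40), with 454 genes at an unadjusted p under 0.05 against 495 without it, and the random replicate block gave 405. The count was 1047 without high IOP replicate 3 and 220 without the dimmest 50% of genes, where fewer genes were tested. Itgb3 was not in that set, nor without the dimmest 25%, so no median of 8 was taken there. With group means subtracted 1 of 28 pairs passed, Itga6 with Itgb1 (r = 0.88, adjusted permutation p = 0.0403). By the other Itga6 probe set, chosen after seeing the data, r with group means subtracted was -0.07. Without that subtraction r by the other probe set was -0.25 over 10 arrays, and 0.32 without high IOP replicate 1. The r of Itgb1 and Itgb4 was 0.00482 without the 2 arrays farthest from the median, against -0.69, and the cause was not tested. Without detection calls, whether the dim Itgb3 lay above background was not known.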
